A study of Mus musculus with 10 samples.

Results

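Expression of a set of liver genes that is known to depend, in males, on pulses of growth hormone was followed across the genotypes of the HtrA2/Omi S400D mouse. The set was Cyp4a12a, Cyp4a12b, Selenbp2, Elovl3, Hsd3b5 and Slco1a1, and these 6 genes were taken by name from the 19271 genes of the deposited table. The genes were selected on their levels in the 9 males by genotype, which were known from earlier results on the same livers, so the genotype differences of these genes are given as a description without a test. HtrA2/Omi is a serine protease of the mitochondrial intermembrane space, encoded by Htra2, and S400D stands for a serine replaced by aspartate. Liver RNA was sequenced from 10 mice of strain C57BL6/N at the age of 2 months, namely 3 WT/WT males, 3 S400D/WT males, 3 S400D/S400D males and 1 S400D/S400D female. No treatment is given for any group, no wild-type or heterozygous female was analysed here, and the labels do not say how the mutation was introduced, at what hour the tissue was taken, or whether animals shared a litter. The p-values below set a difference between groups against the spread of these samples within groups, to which the lone female adds nothing. They take no account of litter or hour of sampling.

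In rodents the pituitary of males releases growth hormone in separated pulses, while in females its level in blood is more even. Each pulse activates the transcription factor STAT5b in hepatocytes through the growth hormone receptor and the kinase JAK2, and the pulsed pattern keeps a set of liver genes high in males. The 6 genes belong to the best known male-biased genes of mouse liver. Cyp4a12a and Cyp4a12b encode cytochrome P450 enzymes that hydroxylate the end of fatty acid chains, including arachidonic acid. Hsd3b5 encodes a male-specific member of the 3-beta-hydroxysteroid dehydrogenase family, Elovl3 an elongase of very long fatty acids, Slco1a1 an organic anion transporter of the hepatocyte membrane facing the blood, and Selenbp2 a selenium-binding protein.

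On GRCm38.p6, Selenbp2 lies on chromosome 3 from 94693573 to 94704406 and Hsd3b5 on the same chromosome from 98618636 to 98645534. Cyp4a12a occupies 115299046 to 115332815 of chromosome 4, and Cyp4a12b follows from 115411624 to 115439034. Slco1a1 lies on chromosome 6 from 141907281 to 141946962, and Elovl3 on chromosome 19 from 46131897 to 46135694.

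Some of the genes have a near-identical relative, which bears on how far their reads can be told apart. The coding sequences of Cyp4a12a and Cyp4a12b are both 1524 bases long and differ at 23 of them (98.5% identity), with a longest identical run of 342 bases. Selenbp2 and Selenbp1 are both 1416 bases long and differ at 18 (98.7% identity), with a longest identical run of 193 bases. For each pair the 150 coding bases with the most differences are shown, counted from the start codon and read from the plus strand of GRCm38 with GENCODE M21 gene models. Capitals mark the bases that differ between the copies, 9 in the Cyp4a12 stretch (bases 660 to 809) and 6 in the Selenbp stretch (bases 401 to 550).
Cyp4a12a: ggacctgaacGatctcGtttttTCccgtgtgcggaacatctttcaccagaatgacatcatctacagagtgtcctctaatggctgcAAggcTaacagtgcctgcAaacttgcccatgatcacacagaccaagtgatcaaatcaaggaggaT
Cyp4a12b: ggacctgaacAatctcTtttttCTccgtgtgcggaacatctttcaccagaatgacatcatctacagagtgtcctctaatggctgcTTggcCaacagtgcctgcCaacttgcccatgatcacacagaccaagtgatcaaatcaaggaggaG
Selenbp2: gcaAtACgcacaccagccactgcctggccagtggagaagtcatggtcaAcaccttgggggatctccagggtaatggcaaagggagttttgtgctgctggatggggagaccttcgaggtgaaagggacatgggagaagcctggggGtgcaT
Selenbp1: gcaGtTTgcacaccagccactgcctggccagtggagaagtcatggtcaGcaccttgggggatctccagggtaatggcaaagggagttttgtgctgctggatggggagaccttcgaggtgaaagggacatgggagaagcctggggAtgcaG
A read that falls between such capitals cannot be placed on 1 copy, and the authors' program divided those reads. The other genes stand further from their relatives. Coding identity was 80.6% between Hsd3b5 and Hsd3b2, 79.9% between Hsd3b5 and Hsd3b3, 86.7% between Slco1a1 and Slco1a4, and 58.1% between Elovl3 and Elovl6.

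The RefSeq promoter table of GRCm38.p6 matched 3 of the 6 genes, Selenbp2, Hsd3b5 and Slco1a1. Their 250 bases before the start site are shown as the sequences next to the start sites of genes whose transcript levels are compared below, at chr3:94693323-94693572 on the plus strand for Selenbp2, chr3:98645535-98645784 on the minus strand for Hsd3b5 and chr6:141946963-141947212 on the minus strand for Slco1a1. Capitals mark the half-site AGGTCA of nuclear receptors on either strand.
Selenbp2: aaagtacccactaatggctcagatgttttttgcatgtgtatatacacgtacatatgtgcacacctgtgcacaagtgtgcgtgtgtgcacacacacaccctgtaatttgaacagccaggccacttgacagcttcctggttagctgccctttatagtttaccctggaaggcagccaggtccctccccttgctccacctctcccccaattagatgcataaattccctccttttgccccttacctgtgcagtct
Hsd3b5: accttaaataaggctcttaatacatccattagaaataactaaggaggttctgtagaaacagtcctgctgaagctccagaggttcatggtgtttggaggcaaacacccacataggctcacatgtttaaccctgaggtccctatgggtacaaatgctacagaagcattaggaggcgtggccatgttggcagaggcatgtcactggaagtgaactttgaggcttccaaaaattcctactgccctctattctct
Slco1a1: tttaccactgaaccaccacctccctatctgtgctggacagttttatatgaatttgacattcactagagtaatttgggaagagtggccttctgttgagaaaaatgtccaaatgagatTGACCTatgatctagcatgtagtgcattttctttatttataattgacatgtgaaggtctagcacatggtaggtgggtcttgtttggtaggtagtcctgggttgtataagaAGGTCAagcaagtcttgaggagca
Both strands were searched for 7 motifs. Of all 32851 promoter windows of the same length, 7.02% held the STAT5 motif TTCNNNGAA, 6.72% the HNF6 motif ATCAAT, 0.384% the HNF4 motif CAAAGTCCA, 3.17% the FOXA motif TGTTTAC, 0.819% the D-box TTATGTAA, 14.0% the half-site AGGTCA and 6.02% the E-box CACGTG. No 2 of these motifs overlapped in the 3 windows. The Slco1a1 window held AGGTCA at 2 places, from -134 to -129 on the minus strand and from -24 to -19 on the plus strand relative to the start site. The windows of Selenbp2 and Hsd3b5 held none of the 7, which says only that these letters are not in these windows.

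The libraries were of similar depth, between 16240441 and 17264289 expected counts, with 14474 to 14887 genes counted at least once. The mutated gene, Htra2, was at 14.0 ± 2.68 CPM (SD, n = 3) in wild-type males, at 15.9 ± 0.678 in heterozygous and 14.9 ± 0.515 in homozygous males, and the files carry no base calls that would show the mutation. CPM are counts relative to library size after TMM scaling. Hepatocyte markers were high everywhere, with a summed level of 84293 to 142530 CPM, while 5 of 7 measured kidney markers were at 0 in every library. Among the males, some libraries stood apart from others of their genotype. Homozygous male 1 had the lowest level of all 9 males for each of 5 of the 6 genes and shared the lowest place for Cyp4a12b with homozygous male 3, and it lay farthest out on the first principal component of the 9 males. Its Y-linked Ddx3y was at 52.3 CPM, within the range of 46.3 to 52.9 CPM of all males, against 0.0568 CPM in the female. Heterozygous male 2 differed from the other heterozygotes in its clock genes, with Arntl, a core activator of the circadian clock, at 31.4 CPM against 1.18 and 2.57 CPM. Heterozygous male 1 lay at -32.3 on the first principal component, against -7.93 and -5.79 in the other heterozygotes. Wild-type male 1 lay at -18.4 on the second, against 22.4 and 27.0 in wild-type males 2 and 3. Its summed Kupffer cell and macrophage markers were at 597 CPM, against 250 and 191 CPM. The values of the 6 genes are given with and without these animals where leaving one out moved them by over 1.5 times.

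Per unit of transcript length, the wild-type order of the 6 genes was led by Selenbp2 with 554 ± 585 TPM (SD, n = 3). Hsd3b5 followed with 197 ± 90.2 TPM, Slco1a1 with 130.0 ± 29.7 TPM and Cyp4a12a with 119 ± 45.1 TPM. Elovl3 with 59.0 ± 27.9 TPM and Cyp4a12b with 52.8 ± 4.24 TPM closed the order. The ranges of all neighbours in this order overlapped, so the order is not fixed beyond the spread of 3 animals. The animals of 1 genotype already differed widely in these genes. Among wild-type males the coefficient of variation of the CPM, not of the TPM above, was 113% for Selenbp2, 50.9% for Hsd3b5 and 43.3% for Elovl3. It was 29.5% for Slco1a1, 29.4% for Cyp4a12a and 2.21% for Cyp4a12b. The median was 8.92% over the 7634 genes that reached 10 CPM in wild type. Thus 5 of the 6 genes varied more than the median gene between wild-type animals on this scale, and Cyp4a12b varied less. The evenness of Cyp4a12b depends on the scale, since in TPM it ran from 48.4 to 56.9. How the division of reads shared with Cyp4a12a bears on it was not examined. Together the 6 genes took 0.0791% to 0.232% of all counts in wild-type males, 0.136% to 0.293% in heterozygous males and 0.0127%, 0.0722% and 0.0614% in homozygous males 1, 2 and 3. In whole-liver RNA, fewer cells that express a gene and less RNA per cell cannot be told apart.

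**Figure D1:**
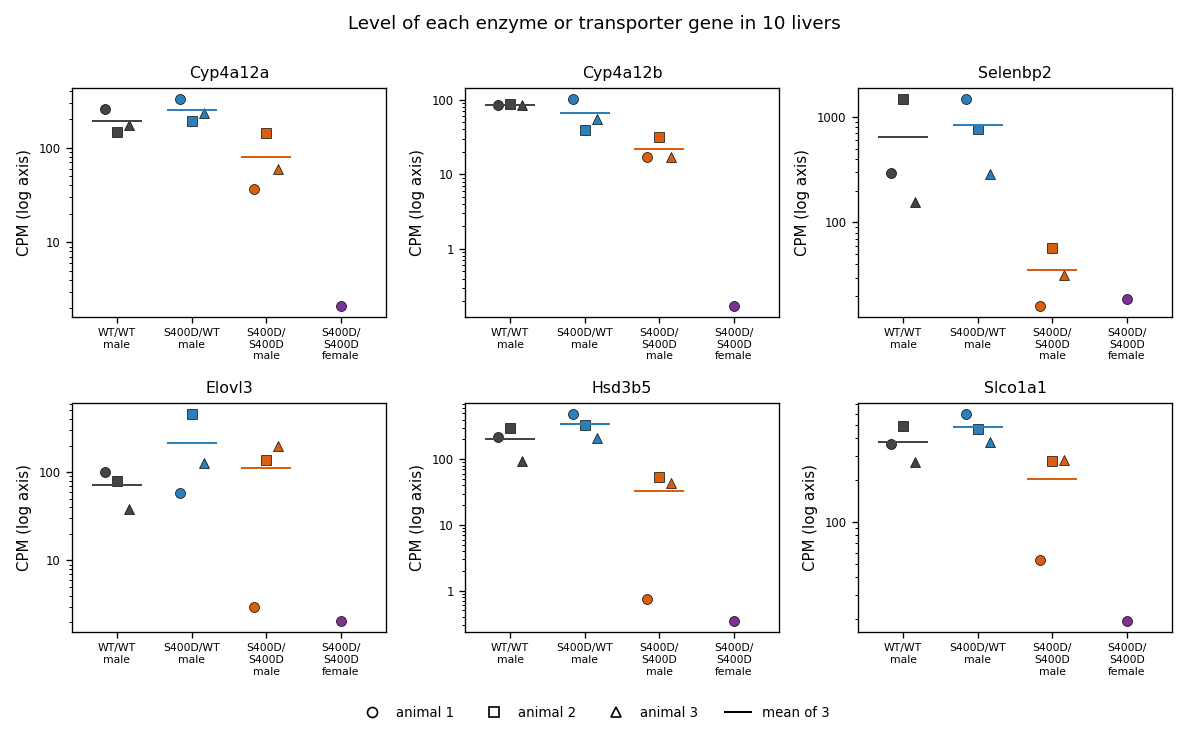
Level of each of the 6 genes in CPM (log axis) in 10 livers, by genotype and sex. Symbols are animals 1, 2 and 3 of a group and lines are means of 3 males. Homozygous males lie low for Cyp4a12b, Selenbp2 and Hsd3b5, while Elovl3 spans 2.96 to 197 CPM in the same animals, and the female lies below the lowest homozygous male except for Selenbp2.

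The P450 genes were both lower in homozygous males. Cyp4a12b was at 85.4, 87.9 and 84.2 CPM in wild-type males 1, 2 and 3, at 103, 39.2 and 55.0 CPM in heterozygous males and at 17.2, 31.7 and 17.2 CPM in homozygous males. The homozygous values lay below all others, and the heterozygous values spread on both sides of the wild-type ones. Against wild type, the log2 fold change in homozygous males came to -1.96 (SE 0.35). Cyp4a12a was at 257, 148 and 174 CPM in the wild-type group, 332, 192 and 235 CPM in heterozygous and 36.4, 144 and 60.0 CPM in homozygous males. Its homozygous values also lay below the others, but homozygous male 2 missed wild-type male 2 by a narrow margin, and on the TPM scale these groups overlapped with 101 TPM in that homozygote and 80.6 TPM in that wild-type animal. The log2 fold change was -1.27 (SE 0.46). Since the copies share reads, their sum is the firmer value. It was 342, 236 and 258 CPM in the wild-type group, 435, 231 and 290 CPM in heterozygous and 53.5, 176 and 77.2 CPM in homozygous males. The homozygous sums lay below every other male's, with a log2 fold change of -1.45 (SE 0.42) against wild type. Without homozygous male 1 it was -1.13 (SE 0.38) and without homozygous male 2 it was -2.10, and Cyp4a12a alone was at -2.01 without homozygous male 2. Cyp4a12a held 62.5% to 82.9% of the pair's TPM in the 9 males and was the larger copy in each.

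Hsd3b5, the steroid enzyme, was at 219, 301 and 94.3 CPM in the wild-type group, 492, 329 and 209 CPM in heterozygous and 0.755, 53.5 and 43.1 CPM in homozygous males. Every homozygous animal lay below every other male, and homozygous male 1 was at 0.369% of the wild-type mean against 26.1% and 21.1% in homozygous males 2 and 3. Relative to wild type the log2 fold change was -2.65 (SE 1.01), and -2.08 (SE 0.50) without homozygous male 1.

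Slco1a1, the transporter, was at 363, 488 and 268 CPM in the wild-type group, 599, 464 and 378 CPM in heterozygous and 52.8, 275 and 280 CPM in homozygous males. Homozygous males 2 and 3 lay just above wild-type male 3, so these groups overlapped, and the log2 fold change of -0.88 (SE 0.52) shrank to -0.42 (SE 0.26) without homozygous male 1. Against heterozygous males, by contrast, all 3 homozygous males were lower.

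Selenbp2 showed the largest fold difference of the 6. It was at 292, 1488 and 158 CPM in the wild-type group, 1482, 759 and 291 CPM in heterozygous and 16.1, 57.4 and 31.7 CPM in homozygous males. The groups did not overlap, although wild-type animals alone spanned 9.43-fold. The log2 fold change was -4.19 (SE 0.96), -3.84 (SE 1.10) without homozygous male 1 and -2.69 without wild-type male 2. Selenbp1, the near-identical copy, was at 307, 437 and 467 CPM in wild-type and 265, 319 and 326 CPM in homozygous males. Summed with Selenbp1, the pair was at 599, 1925 and 625 CPM in the wild-type group, 1869, 1114 and 549 CPM in heterozygous and 281, 376 and 358 CPM in homozygous males. The summed values of homozygotes still lay below all others, with a log2 fold change of -1.63 (SE 0.52). How reads were divided between the copies was not examined.

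Elovl3, the fatty acid elongase, departed from the other 5. It was at 99.9, 79.5 and 38.3 CPM in the wild-type group, 58.6, 459 and 128 CPM in heterozygous and 2.96, 137 and 197 CPM in homozygous males. Homozygous male 1 was far below all other males, whereas homozygous males 2 and 3 were above every wild-type male. Relative to wild type the log2 fold change was 0.63 (SE 1.11), 1.21 (SE 0.74) without homozygous male 1, and of negative sign in 5 of 20 alternative computations. Without homozygous male 3 it was -0.05. Hormone levels were not analysed here. A predicted second transcript held 1.83% to 8.80% of its TPM in males and 21.6% in the female. Elovl3 is also known to follow the circadian clock. The 3 males with the most Elovl3 transcript, heterozygous male 2 and homozygous males 2 and 3, had Arntl at 31.4, 25.9 and 37.9 CPM and Dbp, an output gene of the clock, at 6.02, 12.8 and 1.26 CPM. Among the others, homozygous male 1 combined Arntl at 17.7 and Dbp at 4.70 CPM with the lowest Elovl3 level, and the remaining 5 males had Arntl between 1.18 and 4.24 and Dbp between 104 and 251 CPM. Of 19 tested clock genes, 13 were below and 6 above 0 in homozygous against wild-type males. edgeR called 0 of them, with 9 lower and 5 higher at an unadjusted p under 0.05. Over all genes 49.3% were below 0, with 8.08% lower and 6.82% higher at that p. Since the clock state nearly coincides with genotype, the 2 cannot be told apart here. This holds for Elovl3, for the other 5 genes and for the gene lists below. Heterozygous male 2, whose Arntl and Dbp lay within the homozygous range, was above all 3 homozygous males in each of the 6 genes. That is 1 animal, and the part of the clock in any of these values was not tested. Without heterozygous male 2, the log2 fold change of Elovl3 in heterozygous against wild-type males went from 1.57 (SE 1.13) to 0.36.

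**Figure D2:**
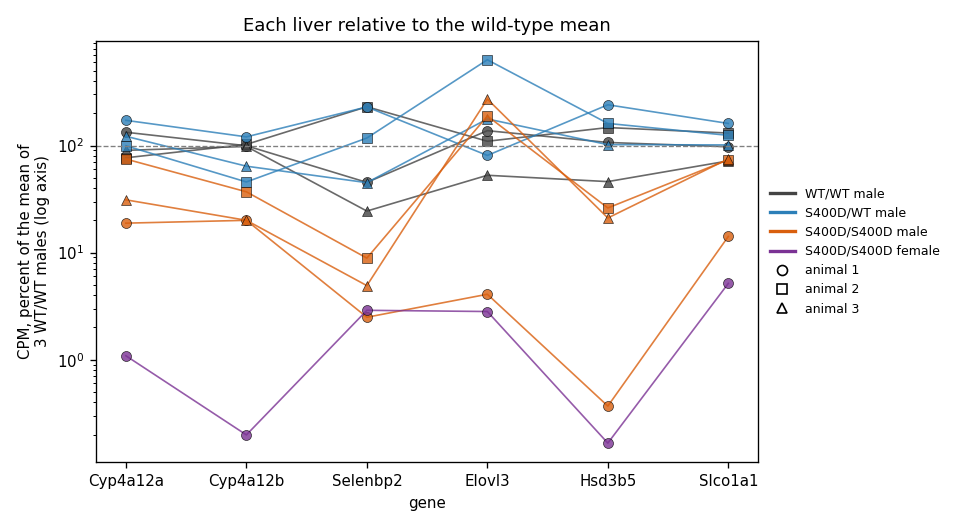
Level of each gene in each liver as percent of the mean of the 3 wild-type males (log axis). Lines join the genes of 1 animal. Homozygous male 1 runs from 20.0% for Cyp4a12b down to 0.369% for Hsd3b5, while homozygous males 2 and 3 reach 189% and 272% for Elovl3 and stay at or below 75.0% for the other genes.

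Over the set, 4 of the 6 genes lay lower in every homozygous than in every wild-type male, a pattern shown by 10.9% of all 12427 genes tested. The 4 were Cyp4a12a, Cyp4a12b, Selenbp2 and Hsd3b5, and with CPM scaled by library size alone or with TPM they were 3, without Cyp4a12a. The median log2 fold change of the 6 was -1.61, against 0.00 over all genes. edgeR's quasi-likelihood test with Benjamini-Hochberg adjustment called 0 of the 12427 genes (0%) in this comparison. At an unadjusted p under 0.05 it had 1004 lower and 848 higher genes, and DESeq2 called 308. Since the 6 genes were chosen with this contrast known, nothing is read from their share.

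For 5 of the 6 genes the heterozygous mean did not lie between those of the other genotypes, Cyp4a12b being the exception. Against wild type, 0 of the 6 genes lay lower without overlap (4.92% of all genes did), and 5 of the 6 had a log2 fold change above 0 (48.4% of all genes were below 0), between 0.36 (SE 0.52) for Slco1a1 and 1.57 (SE 1.13) for Elovl3. Without heterozygous male 2 the value for Elovl3 was 0.36. Cyp4a12b alone was below 0, at -0.39 (SE 0.34). Each of these differences lay within 2 SE of 0. Selenbp2, at 0.38 (SE 0.84), was at 1.89 without wild-type male 2, at -0.29 without heterozygous male 1 and at -0.08 without wild-type male 3. Over the same contrast edgeR called 0 genes (0%), with 313 lower and 208 higher at an unadjusted p under 0.05, and DESeq2 called 7.

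Compared with heterozygous males, homozygous males were lower in most of the genes. Without overlap, 5 of the 6 genes were lower, all but Elovl3, under each of 4 scalings (TMM, DESeq2 size factors, library size and TPM), while 11.7% of all genes were lower without overlap on TMM-scaled CPM. Log2 fold changes were -4.57 (SE 0.98) for Selenbp2, -3.38 (SE 1.04) for Hsd3b5, -1.64 (SE 0.47) for Cyp4a12a, -1.57 (SE 0.35) for Cyp4a12b, -1.23 (SE 0.52) for Slco1a1 and -0.93 (SE 1.11) for Elovl3. Without homozygous male 1 they were -4.22, -2.81, -1.29, -1.41, -0.78 and -0.36 in the same order. Without heterozygous male 2, Elovl3 turned to 0.27, and without homozygous male 3 it was -1.61. Selenbp2 was at -3.90 without heterozygous male 1, and Cyp4a12a at -2.39 without homozygous male 2. This comparison shares the homozygous males with that against wild type, so it is no second observation of them. edgeR called 0 genes here (0%), with 1109 lower and 1025 higher at an unadjusted p under 0.05, and DESeq2 called 545.

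**Figure D3:**
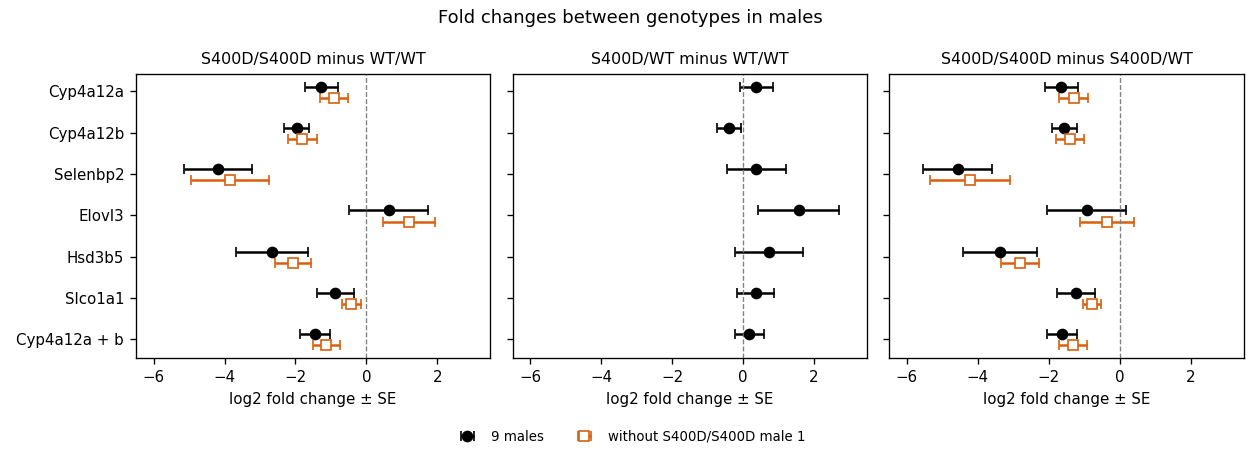
Log2 fold change ± SE from the edgeR fit of males for the 6 genes and the Cyp4a12a and Cyp4a12b sum in 3 genotype contrasts. Filled circles use 9 males, open squares leave out S400D/S400D male 1. Selenbp2 lies farthest from 0 at -4.19 against wild type, and the Elovl3 bar crosses 0 at 0.63.

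The female was not used in choosing the genes, but the homozygous males she is compared with were. The 6 are also known male-biased genes, so lower levels in a female could be foreseen from the choice. The test results for the 6 genes are therefore given as a description, and no conclusion is drawn from them. In her liver Cyp4a12a was at 2.10, Cyp4a12b at 0.170, Elovl3 at 2.04, Hsd3b5 at 0.341, Slco1a1 at 19.2 and Selenbp2 at 18.7 CPM. The first 5 genes lay below all 3 homozygous males, whereas Selenbp2 lay between homozygous male 1 and homozygous male 3. Her clock genes differed from those of the homozygous males as well, with Arntl at 1.59 and Dbp at 205 CPM, and their part in this comparison was not tested. Of all 12954 genes in this fit, 27.1% lay below all 3 males in the same way. By edgeR's quasi-likelihood test, which here has no replicate of the female and uses males whose values were known when the genes were chosen, 1 of the 6 passed the threshold of 0.05, Cyp4a12b with a log2 fold change of -6.96 (SE 0.95, adjusted p = 0.0498), and 0.0463% of all genes were called lower. For Cyp4a12b the homozygous male mean was 129 times her level. The 95% Poisson interval of this ratio, 44.3 to 628, covers counting error only and takes the rounded count of 3. Her expected count for the gene was 3.48, beside 36.5 for Cyp4a12a, so its level also rests on how shared reads were divided. Leaving out any 1 wild-type male, heterozygous male 3 or homozygous male 3 ended the call, and over 18 alternatives its adjusted p ran from 1.04e-09 to 0.383 and was under 0.05 in 8. The sum of Cyp4a12a and Cyp4a12b fell short of the threshold at -5.49 (SE 0.85, adjusted p = 0.110).

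The other genes missed the threshold in the same edgeR test. The log2 fold change was -5.26 (SE 0.94, adjusted p = 0.175) for Cyp4a12a, -3.40 (SE 0.92, adjusted p = 0.328) for Slco1a1 and -6.55 (SE 2.33, adjusted p = 0.386) for Hsd3b5. It was -5.78 (SE 2.34, adjusted p = 0.440) for Elovl3 and -0.91 (SE 1.28, adjusted p = 0.859) for Selenbp2. With only 1 female, the test borrows her spread from that within the male groups, and without homozygous male 1 the SE of Hsd3b5 was 1.07. DESeq2 called 4 of the 6 lower, Cyp4a12a, Cyp4a12b, Hsd3b5 and Slco1a1, with 0.533% of all genes called lower. For Selenbp2 summed with Selenbp1 the sign turned to 0.30 (adjusted p = 0.932 in edgeR).

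Homozygous male 1 came near the female in some of the 6 genes and not in others. Hsd3b5 was at 0.755 CPM in him and 0.341 CPM in her, Elovl3 at 2.96 and 2.04 CPM, and Selenbp2 at 16.1 and 18.7 CPM. The P450 genes differed, with Cyp4a12a at 36.4 against 2.10 CPM and Cyp4a12b at 17.2 against 0.170 CPM. Female-biased genes of the liver were divided in the same animal. Cux2, a female-biased repressor of male-biased genes, was at 86.1 CPM in him and 70.1 CPM in her, against 0.335 to 11.8 CPM in the other 8 males. The sulfotransferase gene Sult2a1 was listed at 0 in him and at 63.7 CPM in her, and the P450 gene Cyp2b13 at 0.0581 CPM in him and 325 CPM in her. Sult2a1, Sult2a2 and Cyp2b13 were the 3 female-biased genes called higher in the female than in homozygous males by edgeR, against 0.0309% of all genes. Their log2 fold changes were 11.21, 10.39 and 9.53. All 3 depend on near-zero male values, with Cyp2b13 at 0.0581, 0.465 and 0.779 CPM in homozygous males. These genes were not tested in the fit of males, only in the fit that includes the lone female. They were named once their values had been seen, so the calls are a description and no conclusion is drawn from them.

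The genes listed for the growth hormone pathway, which mix the receptor, signal transducers, feedback inhibitors and target genes, showed no common direction. Of 21 listed genes, 20 were tested in males, and in homozygous against wild-type males 7 were below and 13 above 0, with a median log2 fold change of 0.05. edgeR called 0 of them, with 4 lower and 1 higher at an unadjusted p under 0.05, against 8.08% and 6.82% of all genes. The 4 lower were Igf1, Igfals, Lifr (log2 fold change -1.20, SE 0.44) and Egfr (-0.91, SE 0.38). The 1 higher was Igfbp1 (1.81, SE 0.61). Without homozygous male 1, Lifr was at -1.08 (SE 0.51), Egfr at -0.95 (SE 0.45) and Igfbp1 at 1.44 (SE 0.64). Ghr, the receptor, was at 540, 499 and 357 CPM in wild-type and 160, 449 and 418 CPM in homozygous males, so only homozygous male 1 lay outside the wild-type range. The kinase gene Jak2 (log2 fold change 0.04) and the signal transducers Stat5a (0.05) and Stat5b (0.45, SE 0.23) were not below 0. Among genes induced by the hormone, Igf1, the growth factor, was at 421, 573 and 476 CPM in wild-type and 291, 316 and 253 CPM in homozygous males. All homozygous values lay below all wild-type ones, with a log2 fold change of -0.78 (SE 0.17), and Igfals, which stabilises its protein in blood, followed with -0.80 (SE 0.22). The feedback inhibitors of the receptor were divided, with Socs2 at 1.41 (SE 0.68) and Cish at -1.04 (SE 0.51). Socs2 stood at 57.7 CPM in homozygous male 1 and at 11.5 and 18.4 CPM in the other homozygotes, against 8.97 to 12.0 CPM in wild type, and without homozygous male 1 its log2 fold change was 0.47 (SE 0.60). None of these passed the adjusted threshold in edgeR, while DESeq2 called Igf1 (adjusted p = 0.00271) and Igfals (adjusted p = 0.0332).

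**Figure D4:**
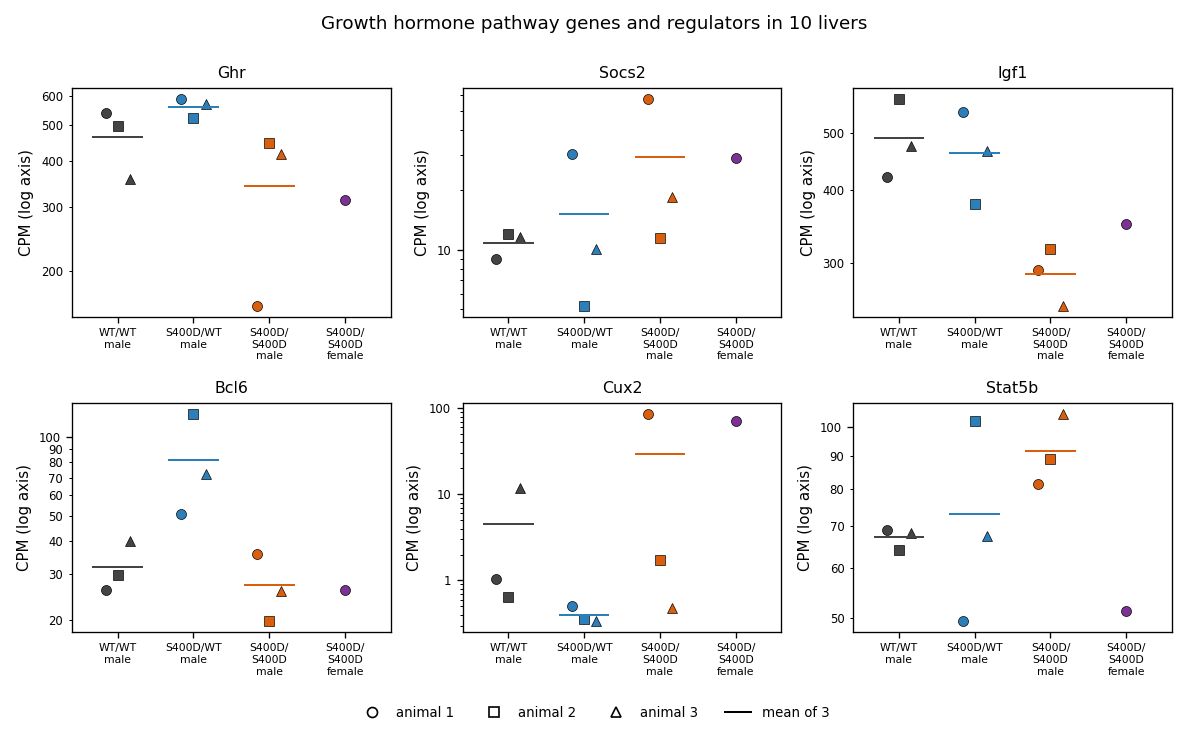
Levels in CPM (log axis) of the receptor Ghr, the feedback inhibitor Socs2, the growth factor Igf1, the repressors Bcl6 and Cux2 and the transducer Stat5b in 10 livers. Symbols are animals and lines are means of 3 males. Homozygous male 1 has the lowest Ghr (160 CPM) and the highest Cux2 (86.1 CPM) of all males, and Igf1 is below every wild-type value in all 3 homozygous males.

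The transcription factors that set male and female patterns were likewise mixed. Of 27 tested regulators, 16 were below and 11 above 0 in homozygous against wild-type males, with a median of -0.10. edgeR called 0, with 4 lower and 1 higher at an unadjusted p under 0.05, against 8.08% and 6.82% of all genes. Bcl6, a repressor known to oppose STAT5 in liver, was at 26.1, 29.6 and 40.2 CPM in the wild-type group. It was at 50.8, 123 and 72.4 CPM in heterozygous and 35.8, 19.8 and 25.8 CPM in homozygous males. The heterozygous males had the highest levels, and wild-type and homozygous males overlapped. Hnf4a, which maintains hepatocyte identity, differed by 0.07 and Onecut1, the gene of HNF6, by -1.90 (SE 0.94). Cux2 had a log2 fold change of 2.69 (SE 1.55) that rested on homozygous male 1, and without it the value was -1.99 (SE 1.18). Wild-type male 3 had the highest Cux2 (11.8 CPM) and the lowest Ghr (357 CPM) of its group. In CPM it also had the lowest wild-type level of 5 of the 6 genes, Cyp4a12a excepted. For Cyp4a12b the margin was small, and in TPM wild-type male 2 was lowest, at 48.4 against 53.0 TPM in male 3. This describes 1 animal whose values had been seen, and a link between these genes was not tested.

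Other male-biased liver genes were mostly below 0, as were 5 of the 6 genes. The list was chosen with earlier results of these data known and holds several related Mup genes. Its counts are therefore a description, and no conclusion is drawn from them. Of 40 tested, 36 had a log2 fold change below 0 in homozygous against wild-type males, as had 49.3% of all genes, with a median log2 fold change of -1.14 against 0.00 over all genes. edgeR called 0, and 26 of the 40 were lower at an unadjusted p under 0.05 against 8.08% of all genes. Without homozygous male 1, 35 of 40 were below 0, the median was -1.05, and 23 were lower and 1 higher at that p, against 6.77% and 5.76% of all genes. Examples were Fabp5, a fatty acid binding protein gene (log2 fold change -3.13, SE 0.54), Cyp2u1 (-1.31, SE 0.23), the steroid enzyme gene Hsd17b2 (-1.33, SE 0.26) and the urinary protein gene Mup21 (-1.11, SE 0.24). Cyp2d9, a steroid hydroxylase gene, was at -0.75 (SE 0.27), the oxysterol hydroxylase Cyp7b1 at -1.75 (SE 0.49) and Mup20 at -1.45 (SE 0.59). In heterozygous against wild-type males 11 of the 40 were below and 29 above 0, with a median of 0.20. The contrasts share the wild-type males.

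Female-biased genes showed the opposite sign less evenly. This list too was chosen with earlier results of these data known, so its counts are likewise a description. Of 40 measured genes of the list, 29 passed the filter on low counts in males and were tested. In homozygous against wild-type males 6 of these were below and 23 above 0, with a median of 0.66. edgeR called 0, with 1 lower and 4 higher at an unadjusted p under 0.05, against 8.08% and 6.82% of all genes. Cyp2b10 (log2 fold change 3.09, SE 0.83), Nipal1 (2.39, SE 0.68) and Cyp17a1 (1.58, SE 0.67) were among those with the smallest p. Without homozygous male 1 these values were 1.72 (SE 0.59), 1.31 (SE 0.50) and 0.58 (SE 0.54). Without homozygous male 1 the median was 0.51, with 7 of 30 tested below and 23 above 0. Over these 4 lists and the paralogs below, DESeq2 called 21 genes in this contrast, where it called 1.62% of all genes lower and 0.955% higher. Among the 21 were Fabp5, Cyp2u1, Hsd17b2, Mup21, Cyp2b10 and Nipal1. In heterozygous against wild-type males 25 of the 29 female-biased genes were below and 4 above 0, with a median of -0.37. Of all genes, 48.4% were below 0 in that contrast.

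**Figure D5:**
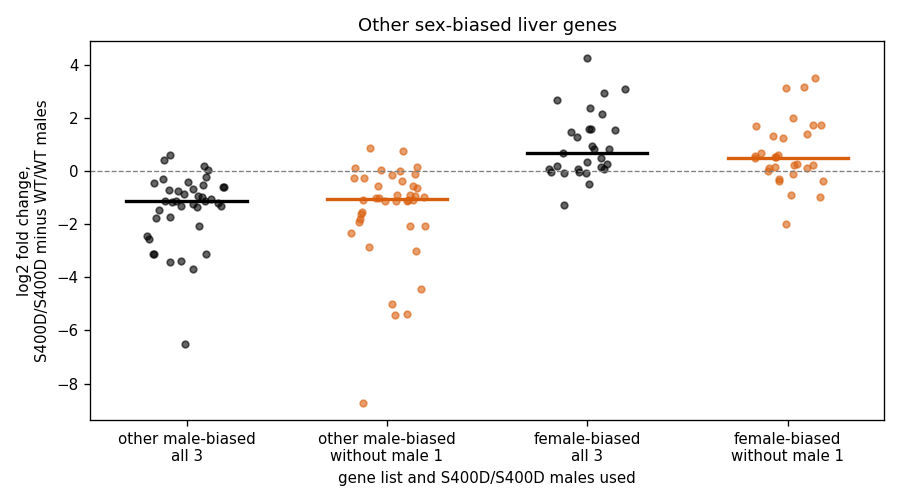
Log2 fold change in homozygous relative to wild-type males for each tested gene of the other male-biased and female-biased lists (points, spread sideways at random) with the list median (bar), using all 3 homozygous males or leaving out male 1. The male-biased median is -1.14 with all animals and -1.05 without male 1, and the female-biased median is 0.66 and 0.51.

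Close relatives of the 6 genes were spread on both sides of 0. Of 21 tested paralogs, 11 were below and 10 above 0 in homozygous against wild-type males, with a median of -0.01. edgeR called 0, with 1 lower and 1 higher at an unadjusted p under 0.05, against 8.08% and 6.82% of all genes. The other fatty acid hydroxylases of the Cyp4a family stood on the opposite side of 0 from Cyp4a12a and Cyp4a12b, with Cyp4a10 at 1.28 (SE 0.83), Cyp4a14 at 2.17 (SE 1.21) and Cyp4a31 at 1.02 (SE 0.51). Cyp4a10 and Cyp4a14 are also female-biased and respond to fatty acids through PPARA. Slco1a4, another organic anion transporter gene, was at 1.55 (SE 0.55) and Slco1b2 at 0.14 (SE 0.17). In the elongase family Elovl2 was at 0.03, Elovl5 at -1.04 (SE 0.52) and Elovl6 at -1.69 (SE 0.61), while Hsd3b2 was at -0.31 (SE 0.49) and Hsd3b3 at -0.73 (SE 0.47). Hsd3b3 was at 290, 282 and 173 CPM in wild-type and 47.4, 192 and 210 CPM in homozygous males, and without homozygous male 1 its log2 fold change was -0.30 (SE 0.24) and that of Hsd3b2 was 0.14 (SE 0.21).

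Across the 9 males the 6 genes varied together to differing degrees. As a description over libraries that share genotype groups, the Pearson r of each gene with the mean of the other 5 (log2 CPM, each gene centred and scaled) was 0.99 for Hsd3b5, 0.95 for Slco1a1, 0.89 for Cyp4a12a, 0.85 for Selenbp2, 0.73 for Cyp4a12b and 0.58 for Elovl3. Hsd3b5 and Slco1a1 had an r of 0.99 with each other, while Elovl3 and Cyp4a12b had 0.18. Without homozygous male 1, over 8 males, the r of Elovl3 with the other 5 turned to -0.27, and those of the other genes were 0.99 for Hsd3b5, 0.93 for Selenbp2, 0.87 for Slco1a1, 0.71 for Cyp4a12a and 0.56 for Cyp4a12b. Hsd3b5 and Slco1a1 then had 0.93, and Elovl3 and Cyp4a12b -0.69. The mean over the 6 was -2.03 in homozygous male 1, -0.22 and -0.61 in homozygous males 2 and 3, and 0.04 to 0.83 in the other 6 males, in units of the SD across males. Among genes averaging 1 CPM or more, those whose pattern was most like this mean were Tst, Gamt, Cmah, Alas2, Tnfsf12 and Sspo, with r of 0.99, 0.99, 0.98, 0.98, 0.98 and 0.98 over 9 males. Gamt, which completes creatine synthesis, was at 168, 216 and 177 CPM in wild-type and 33.3, 113 and 93.5 CPM in homozygous males. The most opposite genes were Serinc3 (-0.99), Plin5 (-0.98), Agt (-0.97) and Ap3d1 (-0.97), and homozygous male 1 was the extreme male library for each of these 10 genes. Without it, their r ran from 0.90 to 0.94 for the 6 most like and from -0.96 to -0.89 for the 4 most opposite. The 10 genes were picked by their r over 9 males that include these 8, so strong values could be foreseen. Alas2 is also an erythroid gene, and the summed erythroid markers were at 1956 CPM in wild-type male 1 and 1717 CPM in heterozygous male 3 against 162 to 502 CPM in the other males. The nearest genes to Slco1a1 alone were Hsd3b3 and the male-biased glucuronosyltransferase Ugt2b1, both with an r of 0.99 (0.93 each without homozygous male 1). They were picked over the same 9 males.

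Markers of other cell types were measured beside the 6 genes. The summed level of 12 Kupffer cell and macrophage markers was 191 to 597 CPM in the wild-type group, 248 to 562 in heterozygous and 522 to 554 in homozygous males, and all 12 were above 0 in log2 fold change between homozygous and wild-type males (median 0.63). The 9 sinusoidal endothelial markers summed to 137 to 311, 200.2 to 279 and 297 to 305 CPM in the same groups, and the 10 stellate cell markers to 114 to 298, 230 to 363 and 243 to 454 CPM. The part of these cells in the levels of the 6 genes was not tested. The 10 hepatocyte markers summed to 104655 to 117764, 84293 to 106787 and 126204 to 142530 CPM in the same groups, most of it Alb with 49619 to 105473 CPM, and 4 of the 10 were below and 6 above 0 between homozygous and wild-type males (median 0.08). The adipose markers, considered because Elovl3 is abundant in brown fat, summed to at most 19.6 CPM, and the brown fat marker Ucp1 did not exceed 0.0581 CPM in any library.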

How the data were processed

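Poly(A)-selected liver RNA of 10 mice was sequenced, per the labels' protocols. The authors deposited, for 77712 transcripts, expected counts (estimated reads, not normalised), FPKM and TPM, the last 2 scaled by the authors for transcript length. HISAT, Bowtie2 and GRCm38.p6 are listed in the submitters' processing notes; for the program that estimated counts, its use of strand and all versions, the sources used here give nothing. Transcripts were summed by gene to 19271 genes (94.5% of nonzero sums within 0.05 reads of a whole number) and rounded.

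CPM carry TMM factors over all 10 libraries. edgeR 4.0.16 (R 4.3.3) with its filter on low counts fitted the 9 males by genotype (12427 genes, 6 residual degrees of freedom) and all 10 samples for the female (12954 genes), with Benjamini-Hochberg adjustment at 0.05; all 6 genes passed both filters. Fold changes are log2 with the SE of the fit. The fit was tested on simulated data. The 6 genes and every list and marker set were chosen with earlier results of these data known. Genes named beside the 6 were a preset group, up to 4 further genes per list with the smallest unadjusted p, and the genes most and least like the 6 over 9 males at a mean of at least 1 CPM (log2 CPM, prior count 2). Sult2a1, Sult2a2, Cyp2b13, Ddx3y and Ucp1 were added to these names once their values had been seen. Some genes that the rule chose are not reported here. Alternatives were DESeq2 1.42.0, limma-voom (limma 3.58.1), DESeq2 size factors, library size alone, no low-count filter or at least 1 CPM in 3 samples, a replicate block, other sample sets, limma on log2(FPKM + 1) or log2(FPKM + 0.1), and omission of each animal. Summing Selenbp2 with Selenbp1, and list medians and correlations without homozygous male 1, were added after seeing the data.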

Additional observations from a re-analysis of the deposited data

How the results depend on the processing

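The female had expected counts of 3.48 for Cyp4a12b and 6 for Hsd3b5, so counting error is wide for these 2 genes. The Cyp4a12b count also rests on the division of reads shared with Cyp4a12a. The median log2 fold change of the 6 genes kept its sign under all 20 alternatives in each male comparison, and on omission of 1 animal it ran from -2.17 to -1.36 for homozygous against wild-type, 0.16 to 0.86 for heterozygous against wild-type and -2.16 to -1.35 for homozygous against heterozygous males. With DESeq2 the genes called were 308, 7 and 545 in these comparisons, against 0, 0 and 0 with edgeR, and 21 genes of the lists were called in the first. DESeq2 called 99 genes between the female and homozygous males, against 10 with edgeR, 5 with at least 1 CPM in 3 samples and 6 with limma on log2(FPKM + 0.1). Of the 6 genes, DESeq2 called 4 there, and limma-voom, DESeq2 size factors, at least 1 CPM in 3 samples and a fit of the compared groups alone called 0 each. On omission of 1 animal, 0 to 18 genes were called for homozygous against wild-type, 0 to 6 for homozygous against heterozygous males and 7 to 12 for the female, with 0 to 1 of the 6 genes among the last. The 18 came without wild-type male 1, and the 6 without homozygous male 2, which gave 2 against wild type. Summed with Selenbp1, Selenbp2 reversed in the female to 0.30. The causes were not tested.

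No pairing by replicate number was apparent. Deviations of same-numbered males correlated between -0.44 and 0.20 (9 pairs), those of others between -0.35 and 0.45 (18 pairs). With so few animals this cannot show whether any shared a litter or batch. With the replicate block the median of the 6 genes was -1.64 for homozygous against wild-type, 0.60 for heterozygous against wild-type and -1.62 for homozygous against heterozygous males, and 0 genes were called in each.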

Other observations

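The table also holds a mean count per genotype made by the authors. For the homozygotes, the authors' deposited mean of expected counts equals the mean over the 3 males and the female, so it lies below the mean of the males for each of the 6 genes. It was 415 for Hsd3b5 and 551 over the males alone, 1433 for Elovl3 and 1898 over the males alone, and 2662 for Slco1a1 and 3436 over the males alone. For Selenbp2, the gene in which the female lay within the range of the males, it was 531 against 598.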
